A study of Mus musculus with 8 samples.

Results

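Mitochondrial carriers and the subunits of the mitochondrial protein import machinery were described in hearts of neonatal C57BL mice, either wildtype or null for connexin43. Members were all genes whose symbol in the probe annotation starts with Slc25a, Timm or Tomm, except Slc25a20, taken only from probes with 1 symbol. By this rule 43 of the 10225 genes named on the array were found, 24 carriers and 19 import genes, on 69 probes of the 28704 spots. Of these, 38 could be compared, 19 carriers and 19 import genes, because at least 3 wildtype and 3 null arrays measured them. The carriers Slc25a23, Slc25a30, Slc25a33, Slc25a34 and Slc25a53 did not, and Slc25a4, the adenine nucleotide carrier of adult heart muscle, was not among the probes with 1 symbol.

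There were 8 two-colour cDNA arrays, 4 per genotype. Each held Cy3-labelled cDNA from 3 pooled neonatal hearts beside a Cy5-labelled reference that was the same on all arrays and was pooled from adult organs of both sexes, heart included. The labels give no day of age and no sex of the neonates, no allele name for the connexin43 deletion, and no C57BL substrain. Each value is the log2 of heart over reference, with the array's median set to 0, so that 1 unit is a doubling, and a difference is the null mean minus the wildtype mean. In pooled tissue a lower value can stand for fewer cells of a type or for less RNA per cell, and the ratios do not tell these apart.

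Mitochondria make only a few of their own proteins, and the rest are made in the cytosol and imported. The TOM complex is the entry gate of the outer membrane. From there, precursors with a cleavable presequence pass through the TIM23 complex, whereas carriers of the SLC25 family are escorted across the intermembrane space by small TIM chaperones and inserted into the inner membrane by TIM22. The carriers themselves exchange ATP, phosphate, amino acids, organic acids, cofactors and metals between cytosol and matrix. Heart muscle is rich in mitochondria, and its ATP supply rests on this exchange.

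The arrays were checked against their labels first. Gja1, which encodes connexin43, read 1.04, 1.31, 0.99 and 0.79 on wildtype replicates 1 to 4 and -0.29, 0.25, 0.12 and 0.22 on null replicates 1 to 4, with no overlap (exact two-sided permutation p = 0.0286, the smallest that 70 assignments allow). By its mean log2 values Gja1 in null hearts stood at 51.6% of wildtype. Of the fixed heart muscle markers 6 were measured, with array medians of 0.55 to 0.81, and 10 markers of other adult tissues had array medians of -3.26 to -2.06. Arrays had values at 12971 to 23929 spots, the fewest on wildtype replicate 1. That array was also least like the others, with a median rank correlation of 0.576, and it was the highest or lowest of the 8 arrays for 20 of the 32 members measured on all arrays and for 53.2% of all 8238 such features. Member differences that turned sign or moved by over 1.5 times without it are also given without it. All 10 markers of other adult tissues read lower in the null group, the median difference being -0.43, with mean levels of -2.40 to -1.94 in wildtype and -2.89 to -2.42 in null hearts. Their part in the members' differences was not tested.

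No member passed the test between genotypes, and neither did Gja1, the deleted gene. In the limma fit across 11804 features, with Benjamini-Hochberg adjustment and a threshold of 0.05, 0 features (0%) were called, and adjusted p-values of the 38 members ran from 0.553 to 0.997. Null values were the lower ones for 12 of 19 carriers (median difference -0.05) and for 12 of 19 import genes (median -0.07). Over all features 59.1% had lower values, and the median was -0.04. Without centring of the arrays the medians were -0.21 for carriers, -0.20 for import genes and -0.18 for all features. The carrier median was 0.02 over the 13 carriers with values on all 4 arrays of each genotype. Averaged over the measured members of each array, the carrier level was 0.03 ± 0.12 in wildtype and -0.03 ± 0.03 in null hearts, and the import level 0.18 ± 0.05 and 0.08 ± 0.05 (SD, n = 4 each). The same level over all features was also lower in null hearts, at 0.02 ± 0.02 in wildtype and -0.02 ± 0.02 in null (SD, n = 4 each). Over wildtype replicates 2 to 4 the carrier level was -0.03 ± 0.05, the same as in null hearts to 2 decimals, and the import level 0.17 ± 0.05 (SD, n = 3). Wildtype replicate 1 lacked values for Slc25a32 and Slc25a15, both below the reference on average in wildtype.

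At an unadjusted p under 0.05, which 8.23% of all features passed in either direction, there were 7 members lower in null hearts (18.4% of 38) and 0 higher, beside 6.13% and 2.1% of all features. They were the carriers Slc25a32, Slc25a15 and Slc25a44 and the import genes Timm8a1, Timm22, Timm10 and Tomm20. That count dropped to 2 when null replicate 1 was left out, to 3 when wildtype replicate 3 was, to 4 when null replicate 2 was and to 5 when wildtype replicate 1 was. It was also 2 with the replicate number as a block and 4 with values required on all 4 arrays of each genotype. The null arrays were entirely below the wildtype arrays for 5 members (13.2%), beside 5.54% of all features. No member showed the reverse, beside 2% of all features. Of the 5, Slc25a32, Slc25a15 and Slc25a44 lacked a value on 1 array or more, and fewer values make such a gap easier to reach. Among the 32 members measured on all arrays only Timm10 and Tomm20 had it, in the average of their probes and not on each probe.

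**Figure D1:**
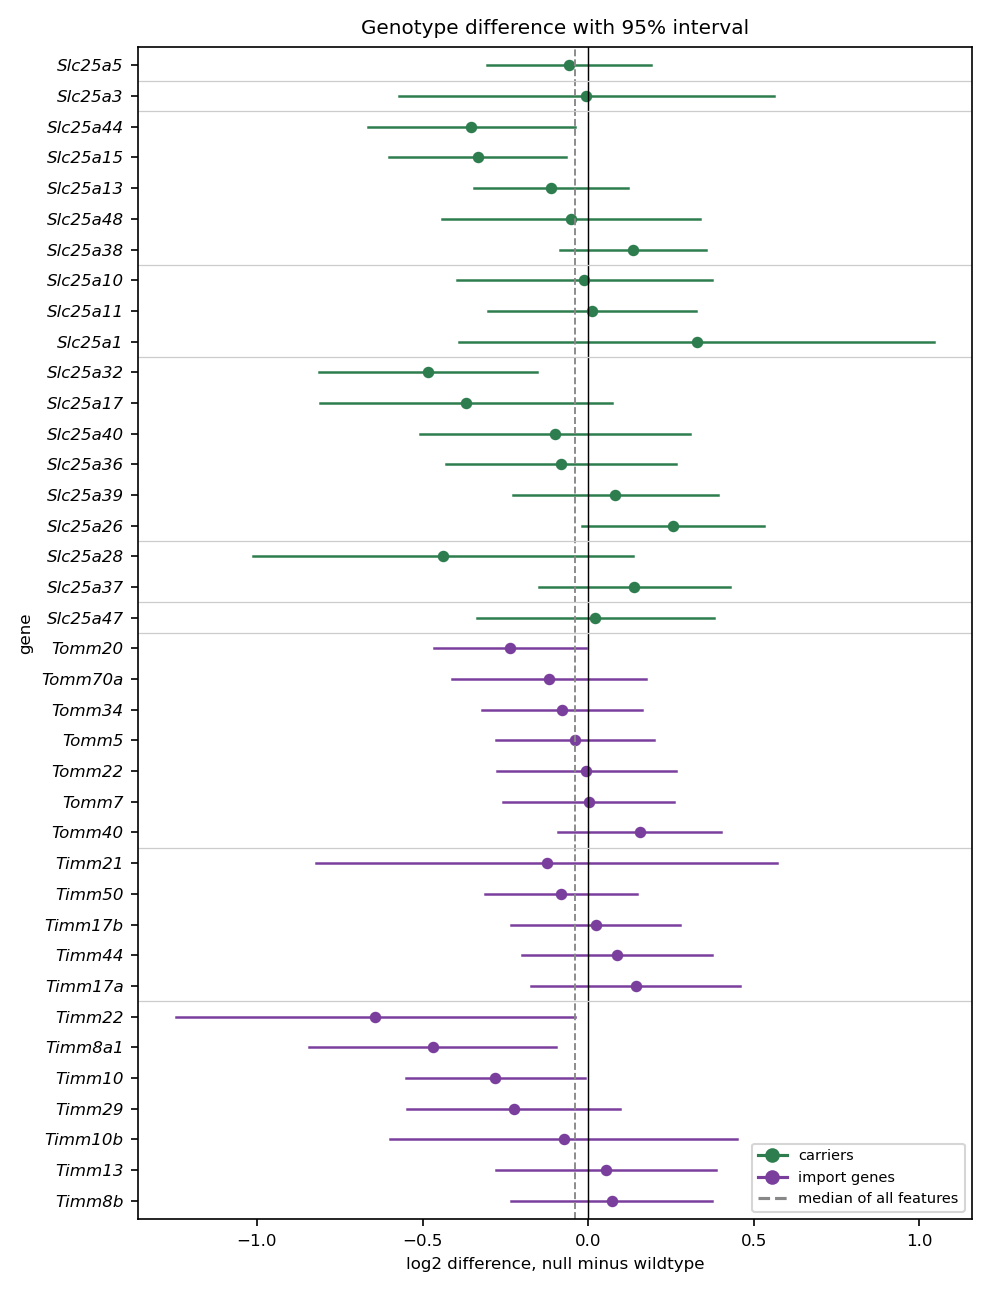
Log2 difference (null minus wildtype, horizontal axis) of the 38 measured members with its 95% interval from limma, carriers in green and import genes in purple, in blocks by role; the dashed line is the median of all features, -0.04. The intervals of Slc25a32, Slc25a15, Slc25a44, Timm8a1, Timm22, Timm10 and Tomm20 lie below 0 before adjustment, and those of the other members include 0.

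Among the subunits at the outer membrane the receptor Tomm20 had the largest difference, which was not tested against those of its neighbours. Tomm20, which recognises presequences, read 0.30, 0.28, 0.47 and 0.48 on wildtype replicates 1 to 4 and 0.11, 0.14, 0.07 and 0.27 on null replicates 1 to 4. In the average of its probes all null arrays were below all wildtype arrays, though null replicate 4 and wildtype replicate 2 nearly met. The difference was -0.24 (SE 0.10, 1.18-fold lower, limma adjusted p = 0.594). Its 3 probes had differences of -0.25, -0.24 and -0.21, but the groups overlapped on the first and the last of them. There null replicate 4, at 0.39 and 0.21, lay above wildtype replicate 2, at 0.38 and 0.11. With each array left out in turn the difference of the average stayed between -0.28 and -0.20.

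The other TOM genes had smaller differences. Tomm22, the receptor that links Tomm20 to the pore, read -0.29, -0.32, 0.06 and -0.04 in wildtype and -0.10, -0.18, -0.31 and -0.02 in null hearts. Its groups lay over each other, and the difference was -0.0054 (SE 0.12, 95% interval -0.28 to 0.27), or -0.05 without wildtype replicate 1. Tomm70a, the receptor preferred by carrier precursors, read 0.26, 0.29, 0.52 and 0.66 in wildtype and 0.55, 0.11, 0.31 and 0.29 in null hearts, again with overlap, and its difference was -0.12 (SE 0.13). Tomm40, the pore itself, read -0.24, -0.13, -0.04 and 0.14 in wildtype and 0.10, -0.02, 0.11 and 0.15 in null hearts. Its difference was 0.16 (SE 0.11), 0.10 without wildtype replicate 1 and -0.0032 when arrays were not centred. The small subunits Tomm5 and Tomm7 and the cytosolic co-chaperone Tomm34 had differences between -0.08 and 0.0011. Without wildtype replicate 1 Tomm5 had -0.09 and Tomm7 -0.07. Null values were lower for 5 of the 7 genes of this group, and the median of -0.04 was the same as that of all features.

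Genes of the TIM22 route had the lowest median difference of the 3 import groups, a result added after seeing the data. These 7 genes comprise Timm22 and Timm29, subunits of the insertion complex, and the small TIM proteins Timm8a1, Timm8b, Timm10, Timm10b and Timm13. Their mean level was 0.23, 0.11, 0.22 and 0.04 on wildtype replicates 1 to 4 and -0.11, -0.11, -0.11 and 0.0007 on null replicates 1 to 4. The genotypes did not overlap, but wildtype replicate 4 and null replicate 4 lay close. The level of wildtype replicate 1 lacked Timm10b and held Timm22 at 1.31, and that of null replicate 1 held Timm22 at -0.74. The level of all features ran from -0.005 to 0.044 in wildtype and from -0.034 to 0.0014 in null hearts, so those ranges barely met. How often other groups of genes part in this way was not tested. The mean was 0.15 ± 0.09 in wildtype and -0.08 ± 0.06 in null hearts (SD, n = 4 each). Null values were lower for 5 of the 7 genes, and the median difference was -0.23. That median was -0.18 without wildtype replicate 1, when all 7 genes had lower values, -0.12 without wildtype replicate 3, -0.07 with 1 probe per gene and -0.38 without centring.

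Within this group Timm8a1, whose product chaperones a subset of inner membrane precursors and whose human counterpart is mutated in deafness-dystonia syndrome, read 0.73, 0.32, 0.25 and 0.18 in wildtype and -0.49, -0.16, 0.19 and 0.07 in null hearts. The groups met only at wildtype replicate 4 and null replicate 3. Its difference was -0.47 (SE 0.17, 1.38-fold lower, limma adjusted p = 0.558), and -0.35 without wildtype replicate 1. Timm22, the channel that inserts carriers, read 1.31, 0.01, 0.34 and 0.11 in wildtype and -0.74, -0.03, -0.07 and 0.05 in null hearts. The lead of the wildtype group came largely from its replicate 1 and the low null mean from null replicate 1. The difference of Timm22 was -0.64 (SE 0.27, 1.56-fold lower, limma adjusted p = 0.590), -0.35 without wildtype replicate 1 and -0.46 without null replicate 1.

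Timm10, the partner of Timm9 in the main chaperone of this route, read 0.72, 0.36, 0.42 and 0.22 in wildtype and 0.03, 0.18, 0.20 and 0.18 in null hearts. In the average of its probes the groups did not overlap, with wildtype replicate 4 just above null replicate 3. On the probe with the larger difference they did, as null replicates 2 to 4 read 0.44 to 0.51 and wildtype replicate 4 read 0.35. Its difference was -0.28 (SE 0.12, 1.21-fold lower, limma adjusted p = 0.594), with -0.39 and -0.17 on its 2 probes, and -0.18 without wildtype replicate 1. Timm29 read -0.40, 0.0020, 0.32 and 0.12 in wildtype and -0.24, -0.15, -0.27 and -0.20 in null hearts. Wildtype replicate 1 lay below every null array while the other 3 wildtype arrays lay above them, and the difference of -0.23 (SE 0.15) was -0.36 without that array and -0.12 without wildtype replicate 3. Its 2 probes read -0.60 and -0.02, the first without a value on wildtype replicate 1.

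The remaining small TIM genes had no such lead. Timm8b, the paralog of Timm8a1, read -0.53, -0.05, -0.0020 and -0.25 in wildtype and 0.07, -0.23, -0.26 and -0.13 in null hearts, with a difference of 0.07 (SE 0.14) that was -0.09 without centring. Timm13, which forms a complex with Timm8a1, read -0.46, -0.11, 0.18 and 0.20 in wildtype and -0.0026, -0.03, -0.10 and 0.15 in null hearts, a difference of 0.05 (SE 0.15), or -0.11 without centring. For both genes wildtype replicate 1 was the lowest of all arrays. Without it their differences were -0.04 and -0.08. Timm10b, which docks the chaperone on TIM22, had -0.07 (SE 0.24) over 3 wildtype arrays.

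**Figure D2:**
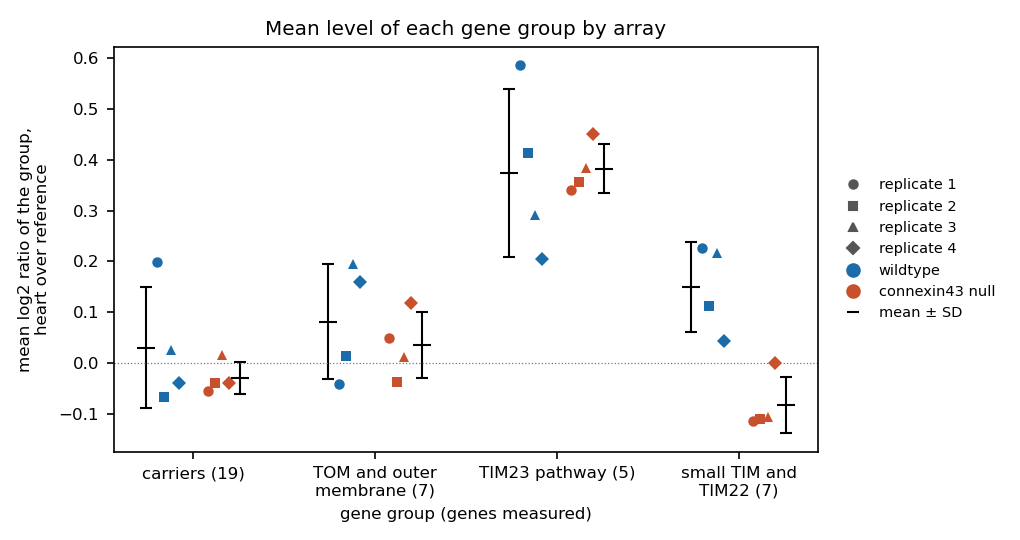
Mean log2 ratio of heart over reference (vertical axis) on each array for the carriers, the TOM and outer membrane group, the TIM23 pathway and the small TIM and TIM22 group, blue for wildtype and red for null; marker shapes give the replicate number, and bars show mean ± SD of the 4 arrays. Levels of the small TIM and TIM22 group run from 0.04 to 0.23 in wildtype and from -0.11 to 0.0007 in null hearts. In that group the level of wildtype replicate 1 lacks Timm10b and holds Timm22 at 1.31. In the other groups the genotypes overlap. The result for the small TIM and TIM22 group was added after seeing the data.

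The TIM23 route gave no such separation. Null values were lower for 2 and higher for 3 of its 5 measured genes, and the median difference was 0.02, or 0.08 without wildtype replicate 1 and -0.14 without centring. Timm17a, a channel subunit, read 0.18, 0.73, 0.42 and 0.09 in wildtype and 0.38, 0.61, 0.48 and 0.51 in null hearts, a difference of 0.14 (SE 0.14). With an array left out it ran from 0.05 (without wildtype replicate 4) to 0.27 (without wildtype replicate 2), and it was 0.08 without wildtype replicate 1. The paralog Timm17b read -0.16, 0.19, 0.28 and 0.07 in wildtype and 0.13, 0.15, 0.04 and 0.15 in null hearts, a difference of 0.02 (SE 0.12), or -0.06 without wildtype replicate 1. Null values of both genes lay within the wildtype range.

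Timm44, which tethers the import motor to the channel, read 0.61, 0.34, 0.07 and 0.53 in wildtype and 0.38, 0.42, 0.57 and 0.54 in null hearts, with a difference of 0.09 (SE 0.13), or 0.16 without wildtype replicate 1. Timm21, which couples TIM23 to the TOM complex, read 1.87, 0.62, 0.32 and 0.05 in wildtype and 0.48, 0.48, 0.55 and 0.85 in null hearts. Wildtype replicate 1 lay far above the other arrays, and the difference of -0.13 (SE 0.32) was 0.26 without it. Timm50, the receptor of the complex, had -0.08 (SE 0.10), and -0.04 without wildtype replicate 1. The difference between the TIM22 and TIM23 routes was not tested.

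**Figure D3:**
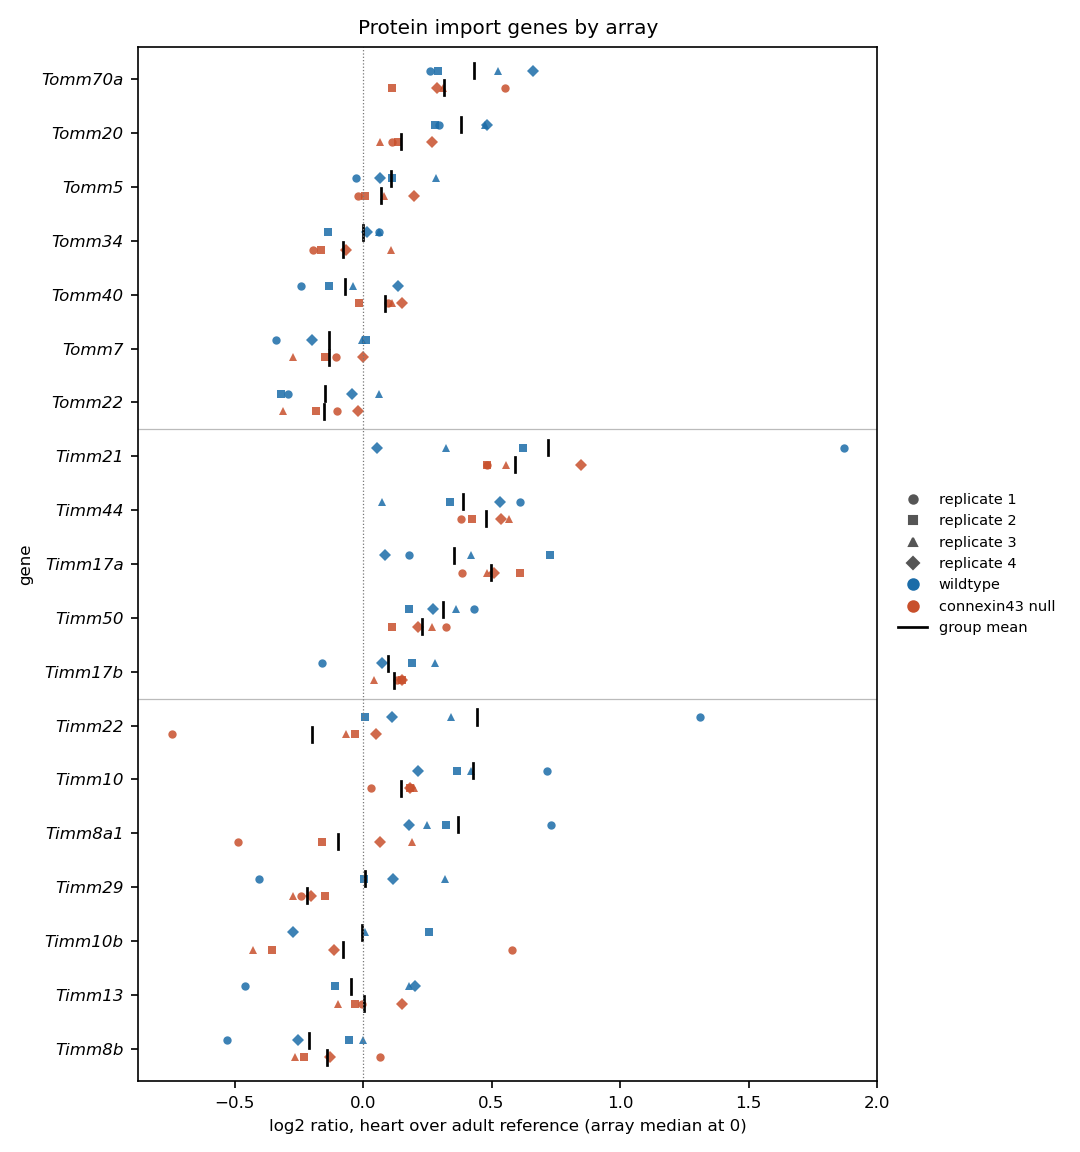
Log2 ratio of heart over reference (horizontal axis) on every array for the 19 import genes, blue for wildtype and red for null, with marker shapes for replicate numbers and black bars for group means; blocks are TOM and outer membrane, TIM23 pathway, and small TIM and TIM22. Wildtype replicate 1 reads 1.87 for Timm21 and 1.31 for Timm22, beyond all other arrays, and the 4 null values of Tomm20 and Timm10 lie below their 4 wildtype values.

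Promoters of these genes were read because regulators of nuclear genes for mitochondria are known to bind close to the start site. RefSeq windows of GRCm38.p6 were matched for 37 of the 43 members; Slc25a26, Slc25a32, Slc25a37, Slc25a44, Timm21 and Tomm7 are not used here. In the 250 bases before the start, on both strands, CCGGAAG, the core bound by ETS factors such as GABPA, was found in 9 members (24.3%), against 10.2% of 17491 protein-coding genes and 7.83% of all 27025 genes. The 9 were Slc25a3, Slc25a17, Slc25a38, Timm8b, Timm10, Timm29, Tomm22, Tomm34 and Tomm70a. The ERR element TCAAGGTCA was found in Timm8b alone (2.7%, against 0.36% of protein-coding genes). For NRF1 and YY1 only an exact spelling of each motif was searched. These spellings were found in 0 of 37 members, against 1.21% and 0.463% of protein-coding genes. Other spellings were not searched, so these counts do not show that the members lack NRF1 or YY1 motifs. CCAAT was found in 17 (45.9%, against 39.5%). A match describes the letters only. Of the 7 members with an unadjusted p under 0.05 in the genotype comparison 5 had a window, and Timm10 was the 1 with CCGGAAG.

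The last 100 bases before the start are shown for 6 members with a match in them. They are also shown for Timm8a1 and Tomm20, which have no match to the exact letters searched. The null means of Timm8a1 and Tomm20 were below their wildtype means, though neither gene passed the adjusted test. Capitals mark CCGGAAG or its reverse complement and, in Timm8b, TCAAGGTCA at the left.
Timm10, chr2:84826921-84827020, plus strand: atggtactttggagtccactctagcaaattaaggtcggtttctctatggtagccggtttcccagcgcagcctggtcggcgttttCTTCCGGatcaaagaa
Timm8b, chr9:50603801-50603900, plus strand: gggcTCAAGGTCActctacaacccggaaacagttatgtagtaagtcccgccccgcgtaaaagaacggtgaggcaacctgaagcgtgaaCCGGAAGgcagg
Tomm22, chr15:79670768-79670867, plus strand: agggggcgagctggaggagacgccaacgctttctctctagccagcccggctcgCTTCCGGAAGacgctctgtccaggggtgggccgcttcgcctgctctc
Tomm70a, chr16:57121614-57121713, plus strand: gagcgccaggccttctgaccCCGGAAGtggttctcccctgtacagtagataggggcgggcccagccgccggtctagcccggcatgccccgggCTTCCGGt
Slc25a17, chr15:81360766-81360865, minus strand: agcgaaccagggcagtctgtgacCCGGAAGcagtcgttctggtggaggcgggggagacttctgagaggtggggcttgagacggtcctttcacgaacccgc
Slc25a38, chr9:120110282-120110381, plus strand: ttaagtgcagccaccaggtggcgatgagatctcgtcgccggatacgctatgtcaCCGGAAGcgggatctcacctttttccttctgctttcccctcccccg
Timm8a1, chrX:134541671-134541770, minus strand: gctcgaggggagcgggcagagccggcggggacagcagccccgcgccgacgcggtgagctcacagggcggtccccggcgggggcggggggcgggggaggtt
Tomm20, chr8:126945922-126946021, minus strand: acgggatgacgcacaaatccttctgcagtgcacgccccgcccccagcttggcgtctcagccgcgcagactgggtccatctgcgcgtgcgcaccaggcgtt
In Tomm22 both orientations overlap in 1 palindromic run, and Tomm70a holds 1 match on each strand. The members with this core included genes on both sides of the comparison, such as Timm10 (-0.28), Slc25a17 (-0.37) and Slc25a38 (0.14).

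Among carriers of cofactors, Slc25a32, which brings folate and FAD into mitochondria, had the smallest p-value of all members. It read -0.19, 0.20 and -0.06 on wildtype replicates 2 to 4 and -0.61, -0.38 and -0.51 on null replicates 2 to 4, with no value on replicate 1 of either genotype. The groups did not overlap, and the difference was -0.48 (SE 0.15, 1.40-fold lower, limma adjusted p = 0.553). Slc25a17, a carrier of coenzyme A and FAD that sits in peroxisomes rather than mitochondria, read 0.81, 0.10, 0.50 and -0.21 in wildtype and -0.34, -0.06, 0.09 and 0.03 in null hearts. It had -0.37 (SE 0.20) with overlap, and -0.20 without wildtype replicate 1.

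Slc25a26, which imports the methyl donor S-adenosylmethionine, had the smallest p-value among members with higher values in null hearts. It read 0.03, -0.20, 0.13 and -0.09 in wildtype and 0.26, 0.08, 0.47 and 0.09 in null hearts, so that the groups met at wildtype replicate 3. The difference was 0.26 (SE 0.12, 1.19-fold higher, limma adjusted p = 0.597). Slc25a36, a pyrimidine nucleotide carrier, had -0.08 (SE 0.16) over 3 wildtype arrays, and 0.05 without wildtype replicate 1. The glutathione carrier Slc25a39 had 0.08 (SE 0.14), or -0.04 without wildtype replicate 1 and -0.08 without centring. Its relative Slc25a40 had -0.10 (SE 0.19), or -0.19 without wildtype replicate 1. Over the 6 genes of this group 4 had lower values in null hearts.

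Among amino acid carriers, Slc25a15 and Slc25a44 had lower values in null hearts without overlap. Slc25a15, the ornithine carrier of the urea cycle, read -0.34, -0.27 and -0.48 on wildtype replicates 2 to 4 and -0.62, -0.75, -0.84 and -0.58 on null replicates 1 to 4. All null arrays were below the 3 measured wildtype arrays, and the difference was -0.33 (SE 0.12, 1.26-fold lower, limma adjusted p = 0.558). Slc25a44, a carrier of branched-chain amino acids, read 0.02, -0.36, -0.39 and -0.24 in wildtype and -0.74, -0.62 and -0.42 on null replicates 1, 2 and 4. The highest null value lay just below the lowest wildtype values, and the difference of -0.35 (SE 0.14, 1.28-fold lower, limma adjusted p = 0.574) was -0.26 without wildtype replicate 1. Both genes were below the reference in every null heart pool measured.

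The other carriers of this group differed less. Slc25a13, the aspartate-glutamate carrier citrin, read 0.52, 0.34, 0.27 and 0.32 in wildtype and 0.14, 0.37, 0.29 and 0.21 in null hearts, with overlap and a difference of -0.11 (SE 0.11), or -0.07 without wildtype replicate 1. Slc25a38, which supplies glycine for heme synthesis, read 0.29, 0.22, 0.15 and 0.38 in wildtype and 0.44, 0.30, 0.40 and 0.44 in null hearts. It had 0.14 (SE 0.10), and -0.02 without centring. Slc25a48, listed here although amino acids are not its established substrate, had -0.05 (SE 0.18), or 0.12 without wildtype replicate 1, its highest array.

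The mitoferrins, which bring iron to the matrix, were split. Slc25a37, mitoferrin 1 of red cell precursors, read 0.10, 0.47, 0.18 and -0.10 in wildtype and 0.43, 0.32, 0.22 and 0.23 in null hearts. Its difference of 0.14 (SE 0.13) was -0.02 without centring. The 3 probes of Slc25a37 gave 0.37, 0.12 and -0.11, and on the first of them the null arrays, at 0.63, 0.62, 0.40 and 0.42, all lay above the 3 measured wildtype arrays, at 0.14, 0.11 and 0.19. Null values were higher for 6 of the 8 measured erythroid markers (median difference 0.20), with levels of -0.54 to 0.10 in wildtype and -0.10 to 0.10 in null hearts, and their part in the values of Slc25a37 and Slc25a38 was not tested. Slc25a28, the widely expressed mitoferrin 2, read 0.88, -0.10 and -0.02 on wildtype replicates 1, 2 and 4 and -0.25, 0.32, -0.50 and -0.31 in null hearts. Wildtype replicate 1 carried most of its difference of -0.44 (SE 0.26), which was -0.13 without it.

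Carriers of ATP and phosphate, the substrates of ATP synthesis, stood among the highest members against the adult reference. Slc25a5, an adenine nucleotide carrier of growing cells, read 0.37, 0.66, 0.59 and 0.71 in wildtype and 0.41, 0.48, 0.54 and 0.66 in null hearts. The groups lay over each other, and the difference was -0.06 (SE 0.11, 95% interval -0.31 to 0.19), or -0.13 without wildtype replicate 1. The phosphate carrier Slc25a3 read 1.78, 0.59, 0.34 and 0.60 in wildtype and 0.97, 0.78, 0.75 and 0.79 in null hearts, a difference of -0.0063 (SE 0.26) that was 0.31 without wildtype replicate 1.

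The probes of Slc25a3 went opposite ways. On the first the wildtype arrays read 1.57, 0.48, 0.66 and 0.47 and null replicates 1, 3 and 4 read 0.50, 0.20 and 0.47, a difference of -0.40. On the second wildtype replicates 2 to 4 read 0.71, 0.02 and 0.74 and the null arrays 1.44, 0.99, 1.29 and 1.12, all above wildtype, a difference of 0.72. The first had a value on wildtype replicate 1 and the second had none. Of the 15 members with several usable probes, all probes had the same sign for 6 (Slc25a13, Timm10, Timm17a, Timm29, Tomm20 and Tomm22) and not for the other 9.

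Carriers of organic acids had no shared direction. Slc25a11, the oxoglutarate carrier of the malate-aspartate shuttle, read 0.23, 0.19, 0.40 and 0.30 in wildtype and -0.12, 0.52, 0.35 and 0.42 in null hearts, a difference of 0.01 (SE 0.14), or -0.0050 without wildtype replicate 1. Slc25a10, the dicarboxylate carrier, read 0.14, -0.59, -0.14 and -0.12 in wildtype and -0.52, -0.29, -0.0091 and 0.07 in null hearts, a difference of -0.01 (SE 0.18), or 0.11 without wildtype replicate 1. Slc25a1, the citrate carrier that feeds fatty acid synthesis, read -1.13, -0.82, -0.89 and -1.25 in wildtype and -1.04, -1.06, 0.54 and -1.22 in null hearts. It was well below the reference on 7 arrays and above it on null replicate 3 alone, and its difference of 0.33 (SE 0.33) was -0.08 without that array.

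**Figure D4:**
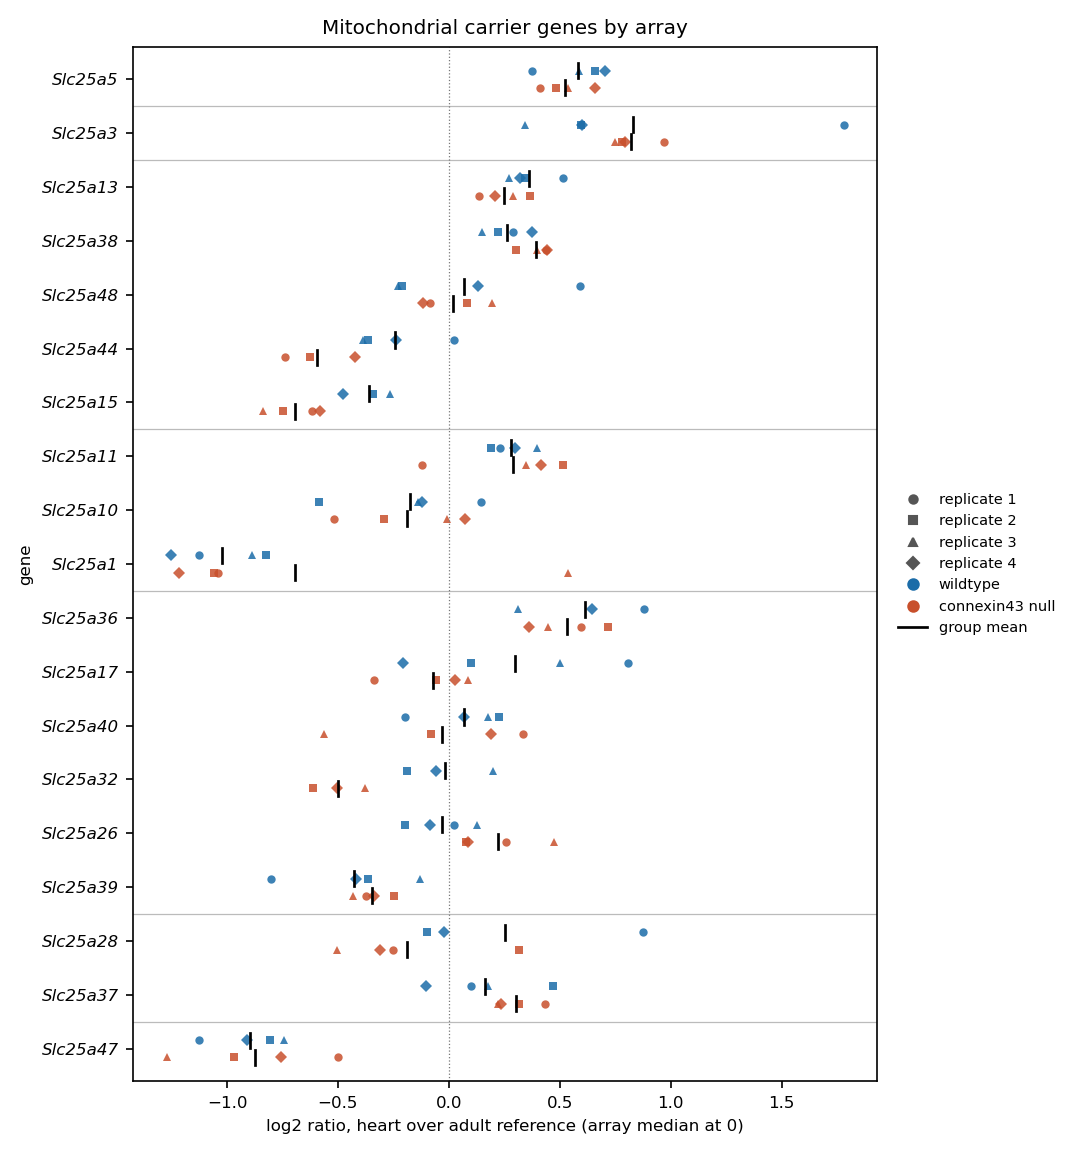
Log2 ratio of heart over reference (horizontal axis) on every array for the 19 measured carriers, blue for wildtype and red for null. Marker shapes give replicate numbers, black bars group means, and lines part the groups by assigned substrate. Slc25a1 sits near -1 on all arrays but null replicate 3, at 0.54, and Slc25a3 reads 1.78 on wildtype replicate 1.

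Against the adult reference, the highest wildtype means were those of Slc25a3 (0.83 ± 0.64), Timm21 (0.72 ± 0.80), Slc25a36 (0.61 ± 0.28, n = 3), Slc25a5 (0.58 ± 0.15) and Timm22 (0.44 ± 0.59), where n = 4 and errors are SD unless stated. Over wildtype replicates 2 to 4 the order changed: Slc25a5 was highest at 0.65 ± 0.06, then Slc25a3 at 0.51 ± 0.15 and Tomm70a at 0.49 ± 0.19 (n = 3), while Timm21 had 0.33 and Timm22 0.15. The lowest over all 4 were Slc25a1 (-1.02 ± 0.20), Slc25a47 (-0.90 ± 0.17), Slc25a39 (-0.43 ± 0.28), Slc25a15 (-0.36 ± 0.11, n = 3) and Slc25a44 (-0.24 ± 0.19). Slc25a47, a carrier found mainly in liver, was below the reference on all 8 arrays and had a difference of 0.02 (SE 0.16), or -0.05 without wildtype replicate 1. These levels keep any bias between the dyes, since heart was always in Cy3.

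**Figure D5:**
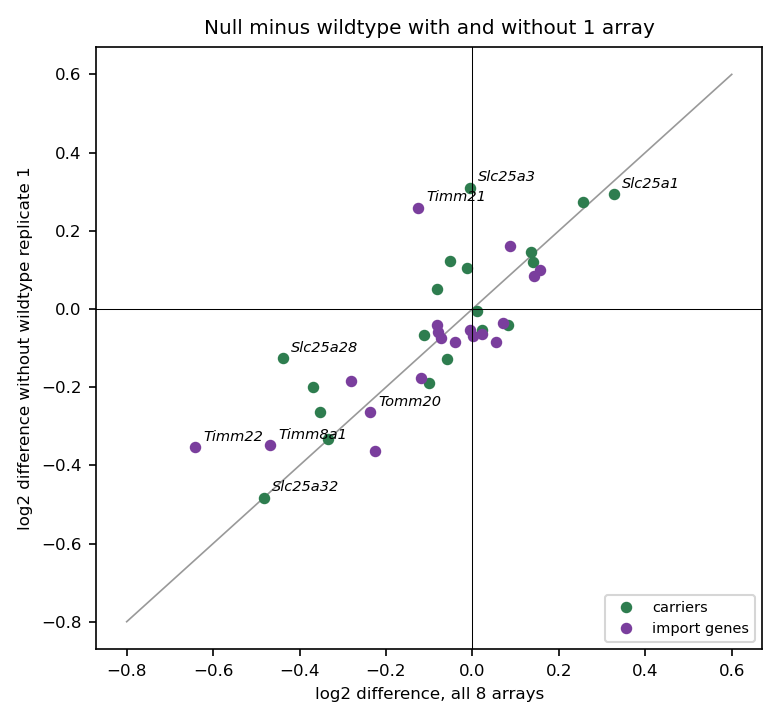
Log2 difference (null minus wildtype) of each measured member with all 8 arrays (horizontal axis) and without wildtype replicate 1 (vertical axis), carriers in green and import genes in purple, with the line of equal values. Slc25a3 and Timm21 move from -0.0063 and -0.13 to 0.31 and 0.26, Timm22 and Slc25a28 move toward 0, and Tomm20 stays near the line at -0.26.

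Other genes of the same pathways were taken from fixed lists. Of 28 measured import and quality control genes outside the naming rule 15 read lower in null hearts (median -0.0058). In limma 0 had an unadjusted p under 0.05, beside 8.23% of all features. The smallest p-values were those of the inner membrane insertase Oxa1l (-0.34, SE 0.21), the protease subunit Clpx (-0.25, SE 0.16), the chaperonin Hspd1 (0.19, SE 0.14) and the sulfhydryl oxidase Gfer (0.15, SE 0.13). Without wildtype replicate 1 Oxa1l had -0.13 and Gfer 0.23. Of 21 measured genes for other mitochondrial transport and membrane proteins 9 read lower (median 0.03). Among them were the transhydrogenase Nnt (-0.53, SE 0.21), the cation exchanger Letm1 (-0.44, SE 0.23) and the uncoupling proteins Ucp1 (0.33, SE 0.20) and Ucp3 (-0.21, SE 0.13). Nnt was the 1 gene of that list with an unadjusted p under 0.05 in limma (4.76%), beside 6.13% of all features that were lower at that p. It had -0.31 without wildtype replicate 1 and did not reach that p. Ucp1 then had 0.15, and Letm1 had -0.18 without wildtype replicate 3.

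On the fixed list for mitochondrial biogenesis, not all of whose genes are regulators of it, 18 were measured and 11 read lower in null hearts (median -0.06). At an unadjusted p under 0.05 in limma 2 were lower (11.1%) and 1 higher, beside 6.13% and 2.1% of all features. They were Myc (-0.29, SE 0.12), the mitochondrial transcription factor Tfb2m (-0.26, SE 0.11) and the lysosome regulator Tfeb (0.30, SE 0.13). The cyclophilin Ppif, which is not a regulator of biogenesis, had 0.15 (SE 0.11). Without wildtype replicate 1 Myc had -0.21 and Tfb2m -0.18, and neither reached that p. None of these genes passed the adjusted test in limma. Heart muscle markers had lower values for 4 of 6 in null hearts (median -0.09, levels of 0.51 to 0.77 in wildtype and 0.54 to 0.74 in null hearts), fibroblast markers for 0 of 6 (median 0.10) and endothelial markers for 1 of 7 (median 0.18). Macrophage, smooth muscle and brown fat markers had lower values for 3 of 5, 2 of 2 and 1 of 2. The part of these cell types in the members' values was not tested.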

How the data were processed

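The deposited values are log2 ratios of 2 dyes per spot, heart in Cy3 against a common reference in Cy5 per the labels. The base was taken from the values: within a print block, 8347 differences equalled (within 1.5e-09) a base-2 logarithm of 2 integers' quotient, both at most 120, against 269 with base e and 863 with base 10. The formula of the ratio is not given, and heart was taken as numerator because heart muscle markers lay above those of other adult tissues on 8 of 8 arrays. The sources used here name no scanner, background correction, spot filter or scaling by the authors.

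The median of each array was set to 0. Probes with 1 symbol in the platform annotation, measured on 3 or more arrays per genotype, were combined per gene by fitting a probe term and an array term. Null against wildtype was fitted with lmFit and eBayes in limma 3.58.1 (R 4.3.3) over 11804 features, with Benjamini-Hochberg adjustment. The script was tested on simulated data. With an array left out, the probes of the full fit were kept.

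Replicates are pools of 3 hearts each, so p-values reflect how much pools vary. Members and lists were chosen with earlier results of these data known. Named members are the 10 with the smallest p in each direction, the 5 highest and 5 lowest in wildtype, and preset paralog pairs; the other 7 are given by difference or range. Alternatives were other centring, quantile normalization, other limits on missing values, other handling of probes, array weights, robust eBayes, a threshold of 0.10, each array left out and the replicate number as a block.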

Additional observations from a re-analysis of the deposited data

Results flagged for a closer look

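In 3 of 71 groups of 4 arrays (4.23%), over the members and Gja1, an array lay far from the other 3 by Dixon's ratio. Chance alone gives about 1 in 20, so the share was not above chance. Slc25a1 read 0.54 on null replicate 3, against -1.22 to -1.04 on the other null arrays. Timm22 read -0.74 on null replicate 1, against -0.07 to 0.05. Timm10 read 0.032 on the same array, against 0.18 to 0.20.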

How the results depend on the processing

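The count of features called was 0 under all 19 alternatives, with 972 at an unadjusted p under 0.05 as reported and 614 to 1392 over the alternatives (a threshold of 0.10 apart). Medians of all features were -0.18 without centring and between -0.05 and -0.03 otherwise. Without centring the medians were -0.21 for carriers, -0.20 for import genes and -0.38 for the small TIM group, which lay below the median of all features under each alternative, by 0.04 with 1 probe per gene and by more otherwise. The small TIM median, a result added after seeing the data as was the count of members at an unadjusted p under 0.05, was -0.15 with values on all 4 arrays, -0.0737 with the probe with the fewest missing values and -0.25 to -0.12 with an array left out. The import median was -0.0722 to -0.0207 with an array left out. The carrier median was 0.0218 with values on all 4 arrays and 0.0166 with array weights. Members with lower values at an unadjusted p under 0.05 numbered 7 as reported, 4 with values on all 4 arrays, 2 with the replicate number as a block and 2 to 6 with an array left out, and members with higher values 0 to 1. Deviations of same-numbered arrays of both genotypes correlated at -0.252 to -0.00902, with no sign that the numbers pair the arrays. This cannot exclude a shared litter or day, and the block is a check only.

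Among the members named by rule, signs turned as follows. Without centring Tomm40 had -0.0032, Slc25a38 -0.0233, Slc25a37 -0.0189, Timm17a -0.0155, Timm44 -0.0711, Slc25a39 -0.0762, Timm8b -0.0876, Timm13 -0.11, Slc25a47 -0.14, Slc25a11 -0.15 and Timm17b -0.14. With array weights Timm8b had -0.0507, Slc25a3 0.18, Timm21 0.12, Slc25a36 0.0295, Slc25a47 -0.0512, Slc25a10 0.15, Timm17b -0.0179 and Tomm22 0.0228. With quantile normalization Slc25a3 had 0.027, Slc25a10 0.0109, Slc25a11 -0.0028, Timm17b -0.0076 and Tomm22 0.0056, and with centring within print blocks Slc25a39 had -0.0011 and Timm17b -0.0284. With the probe with the fewest missing values Slc25a5 had 0.0259, Slc25a10 0.13 and Timm17b -0.0457, with values on all 4 arrays Slc25a10 had 0.13 and Timm17b -0.0457, and with a plain mean of probes Slc25a3 had 0.10. With an array left out, over all 38 members, the ranges that crossed 0 were -0.0423 to 0.18 for Slc25a39, -0.0363 to 0.14 for Timm8b, -0.0841 to 0.15 for Timm13, -0.23 to 0.31 for Slc25a3, -0.35 to 0.26 for Timm21, -0.23 to 0.0514 for Slc25a36, -0.10 to 0.15 for Slc25a47, -0.14 to 0.11 for Slc25a10, -0.0638 to 0.15 for Slc25a11, -0.0629 to 0.0822 for Timm17b, -0.0181 to 0.16 for Timm44, -0.0628 to 0.065 for Tomm22, -0.15 to 0.12 for Slc25a48, -0.22 to 0.0772 for Slc25a40, -0.29 to 0.0562 for Timm10b, -0.0681 to 0.0494 for Tomm7, -0.0857 to 0.018 for Tomm5 and -0.0827 to 0.50 for Slc25a1, which had the highest difference of all members. The cause of these turns was not tested. With 4 arrays per genotype, small differences cannot be told from the spread between pools.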
